A study of Mus musculus with 6 samples.

Results

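Imprinted genes are transcribed mainly from the copy inherited from a single parent. To ask how their transcripts differ when Kansl1 is disrupted, 41 known imprinted mouse genes were looked up by symbol in a table of 26898 gene rows, and 38 of the 41 had a row. Rian, Copg2os2 and Trappc9os had none under these symbols. The members were grouped into 18 loci and by the parental allele from which each is known to be expressed, with 24 listed as paternal and 15 as maternal. The allele is background from textbook knowledge and not a measurement, since the cells came from inbred C57BL/6 embryos and the reads cannot be assigned to a parent.

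RNA was sequenced from primary mouse embryonic fibroblasts (MEFs), connective tissue cells grown from mid-gestation embryos and used at passage 3. WT MEFs were Kansl1 fl/fl, with recombination sites in both copies of the gene. KO MEFs were Kansl1 fl/fl/CAG-cre and added a Cre transgene driven by the CAG promoter, which is active in most cell types, with a recombinase that acts after tamoxifen. All 6 samples had received 1 μM tamoxifen for 48 h, so tamoxifen exposure was shared, whereas Kansl1 and Cre cannot be told apart in this design. There were 3 samples per group, WT 4, 5 and 8 and KO 3, 7 and 10. Per the study, the samples of a group came from separate mice.

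KANSL1 is a scaffold of the non-specific lethal complex, which brings the histone acetyltransferase KAT8 to promoters. Imprinting rests on DNA methylation laid down differently in egg and sperm at imprinting control regions, which then keeps a set of neighbouring genes on from one parental chromosome and off from the other. Many paternally expressed members promote growth of the embryo, many maternally expressed members restrain it, and long non-coding RNAs such as H19, Meg3, Airn and Kcnq1ot1 lie at the core of their clusters. Fibroblasts from mid-gestation embryos are known to express many of these genes, of which some are largely silenced in adult tissues.

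Kansl1 itself lay between 24.4 and 28.5 TPM (reads per gene length, scaled so that all samples have an equal total) in WT and between 13.7 and 15.8 TPM in KO samples, with a log2 fold change of -0.82 (SE 0.11) and an adjusted limma p-value of 0.000859. The reads assigned to genes, recovered from the TPM steps, ranged from 17655495 in KO 3 to 27718259 in KO 7. Defining fibroblast transcripts were abundant, and the summed level of the 13 fibroblast markers was 11098 to 16350 TPM in WT and 11973 to 15802 TPM in KO samples. The summed level of 12 macrophage markers was 46.9 to 56.0 TPM in WT and 98.3 to 191 TPM in KO samples, and 9 of the 10 tested were higher in every KO sample than in every WT sample, where 1961 of all 14799 tested rows were. Of the 9, Adgre1 (0.753 and 2.05 TPM) passed the filter through its KO samples alone. The summed level of the 9 neuron markers with a row was 88.6 to 112 TPM in WT and 104 to 135 TPM in KO samples. Most of it was Tubb3 (58.9 and 79.8 TPM) and Gap43 (36.1 and 38.3 TPM). Stmn2 (2.44 and 3.31 TPM), Elavl4 (1.20 and 0.667 TPM) and Map2 (0.517 and 0.707 TPM) were lower. The synaptic Snap25 and Syt1 and the neuronal Elavl3 and Dcx had group means of at most 0.112 TPM. In bulk RNA, fewer cells of a type and less RNA per cell cannot be told apart. Lyz2 rose from 22.5 ± 1.67 to 73.6 ± 32.3 TPM and C1qc from 1.36 ± 0.291 to 5.40 ± 2.20 TPM (adjusted limma p-values 0.00142 and 0.00251), the latter call being lost without WT 4, WT 5, WT 8 or KO 3, and with median-of-ratios scaling, without the 2 most abundant RNAs, with voom and with all rows tested. With all rows tested the Lyz2 call was lost as well. The summed level of 7 epithelial markers was 72.4 to 81.5 TPM in WT and 84.5 to 107 TPM in KO samples, most of it Krt18 and Krt19, with the defining Epcam and Cdh1 at group means of at most 0.345 TPM. None was called, and 2 of the 4 tested were higher in every KO sample than in every WT sample. The part of macrophage and epithelial transcripts in the results that follow was not tested.

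Among the imprinted genes, Cdkn1c, Mest, Plagl1 and Impact rose in KO MEFs and Snrpn fell. A gene was tested where the mean of either group reached 1 TPM, which held for 29 of the 38 members, and was called at an adjusted limma p-value under 0.005 with a log2 fold change above 0.5 or below -0.5. The log2 fold change is that of TPM + 1, which understates the change of low genes. The 4 members called higher were 13.8% of those tested, whereas 1.64% of all 14799 tested rows were called higher. This count of members was 1 with all rows tested, 1 to 3 with a sample left out, and 5 with voom or median-of-ratios scaling. The single member called lower was 3.45% of those tested, against 9.03% of all tested rows. The median log2 fold change of the 29 members was 0.17, and that of all tested rows was -0.07. Snrpn passed the expression filter through its WT samples alone and so had to differ to be tested at all. The other 28 tested members passed in both groups.

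In 16 of the 29 tested members (55.2%) the WT and KO samples did not overlap, 10 of them higher and 6 lower in KO. Among all tested rows the share without overlap was 43.2%, with 1961 rows higher and 4427 lower. The 19 tested paternally expressed members had a median log2 fold change of 0.22, with 3 called higher and 1 called lower. The 9 tested maternally expressed members had a median of 0.16, with 1 called higher. A difference between the alleles was not tested.

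**Figure D1:**
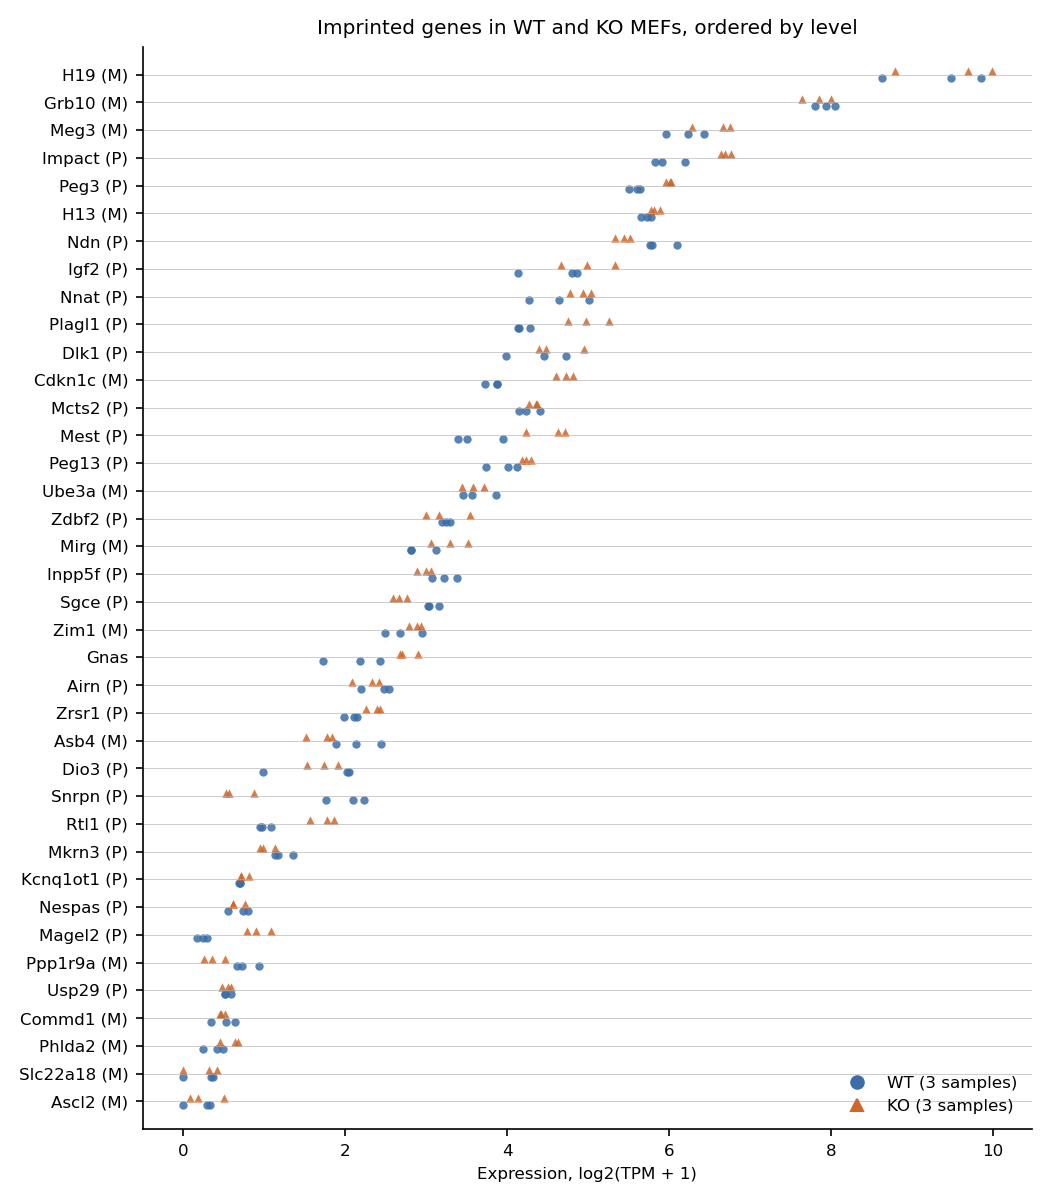
Expression of the 38 imprinted genes in each sample as log2(TPM + 1), ordered by the mean of both groups. Circles are the 3 WT samples, triangles the 3 KO samples, and M or P gives the allele from which the gene is known to be expressed. H19 is the most abundant member, Ascl2 and Slc22a18 the least abundant, and Cdkn1c, Plagl1, Impact, Mest, Rtl1 and Magel2 show all triangles to the right of all circles.

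Levels differed widely between members. TPM is scaled to gene length, so members can be ranked by it. Among those matched by symbol, H19 came first with a mean of 679 ± 266 TPM (SD, n = 3) in WT, followed by Grb10 with 244 ± 20.7 TPM, Meg3 with 73.6 ± 12 TPM, Impact with 62.5 ± 8.80 TPM, Ndn with 58.3 ± 7.83 TPM and H13 with 51.8 ± 2.13 TPM. The WT samples of H19 lay above those of Grb10, and those of Grb10 above those of the other members matched by symbol, whereas the WT ranges of Meg3, Impact and Ndn overlapped, as did those of Ndn and H13. Rian, matched by identifier, had a mean of 104 ± 9.58 TPM in WT, between Grb10 and Meg3. At the other end, 9 members had means under 1 TPM in both groups, namely Kcnq1ot1, Ppp1r9a, Nespas, Usp29, Commd1, Phlda2, Slc22a18, Magel2 and Ascl2.

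Cdkn1c, which encodes the cyclin-dependent kinase inhibitor p57 and is expressed from the maternal allele, was the member whose call held under every alternative. It was at 13.6, 12.3 and 13.7 TPM in WT 4, 5 and 8 and at 25.5, 27.0 and 23.4 TPM in KO 3, 7 and 10. Every KO sample thus lay far above every WT sample, and the samples within a group were close together. The mean rose from 13.2 ± 0.785 to 25.3 ± 1.82 TPM (SD, n = 3 each), a ratio of 1.92. Its log2 fold change was 0.89 (SE 0.11), with an adjusted limma p-value of 0.000564. When 1 sample at a time was left out, the adjusted p-value stayed between 0.00132 and 0.00289. Cdkn1c (ENSMUSG00000037664.13) occupies chr7:143458339-143461050 on mm10, and Gm44732, on the opposite strand, overlaps 625 bp (30.7%) of the exons. Whether reads were counted by strand is not given in the sources used here.

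The related inhibitor Cdkn1a (p21), which is not imprinted, also rose, from 267 ± 32.3 to 469 ± 18.9 TPM (log2 fold change 0.82, adjusted limma p-value 0.000797), a call lost with all rows tested (0.00606). Cdkn1a belongs to a list of 17 cell cycle genes, in which 1 was called higher (5.88%, against 1.64% of all tested rows). In this list 6 were called lower, namely Bub1, Ccnb2, Ccna2, Mki67, Plk1 and Ccnb1. Their log2 fold changes ran from -1.23 for Bub1 to -0.79 for Ccnb1. These 6 were 35.3% of the list, against 9.03% of all tested rows called lower. In 15 of the 17 the KO samples all lay below the WT samples, as in 4427 of all 14799 tested rows, and the median log2 fold change of the list was -0.61. The count was 2 without WT 5 or with no variance trend, 0 with all rows tested, and 10 to 12 with voom, without the 2 most abundant RNAs or with a filter of 10 TPM. Without the fold limit and with adjusted p-values up to 0.05 allowed, it was 15. The shares of all tested rows called lower under these settings are not given here. The part of the cell cycle genes in the level of Cdkn1c was not tested.

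Mest, a paternally expressed gene of mesoderm that encodes a hydrolase-fold protein, rose about as much as Cdkn1c. Its level was 9.48, 14.5 and 10.3 TPM in WT and 17.9, 25.2 and 23.7 TPM in KO samples. The groups did not overlap, with WT 5 and KO 3 the nearest samples across them. The mean rose from 11.4 ± 2.68 to 22.3 ± 3.87 TPM (SD, n = 3 each), with a log2 fold change of 0.91 (SE 0.18) and an adjusted limma p-value of 0.00476, close to the threshold. Leaving out WT 4, WT 8, KO 3, KO 7 or KO 10 moved that value past the threshold, to between 0.00614 and 0.0193. Testing all 26898 rows gave 0.0247, no variance trend 0.0109 and a pseudocount of 0.1 gave 0.00504, so the call was lost under each. The exons of Mest (ENSMUSG00000051855.15, chr6:30723547-30748465) overlap those of the opposite-strand Copg2 over 912 bp (23.1%). Copg2, a coat protein gene transcribed toward Mest, fell from 16.5 ± 0.977 to 8.35 ± 1.43 TPM, with a log2 fold change of -0.91 and an adjusted limma p-value of 0.00131. The Copg2 call was lost with all rows tested (adjusted limma p-value 0.00857), and 9.03% of all tested rows were called lower. The log2 fold changes of the neighbours were opposite in sign, and a link between them was not tested. Reads in the shared exons cannot be assigned with certainty where strand use is not given, so both levels are uncertain.

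Plagl1 encodes a zinc finger transcription factor of the embryo that is expressed from the paternal allele. Its level was 18.5, 16.5 and 16.7 TPM in WT and 26.0, 37.2 and 30.4 TPM in KO samples. The WT samples were tight, the KO samples were spread, and the groups did not overlap. The mean rose from 17.2 ± 1.08 to 31.2 ± 5.62 TPM (SD, n = 3 each), a ratio of 1.81. The log2 fold change was 0.81 (SE 0.14), with an adjusted limma p-value of 0.00245. The call was lost without WT 5, WT 8, KO 7 or KO 10, where the adjusted limma p-value was 0.00666 to 0.00881, in the test of all rows, where it was 0.0127, and with no variance trend, where it was 0.00623. Phactr2, an actin and phosphatase regulator near Plagl1 on chromosome 10, fell from 4.56 ± 0.622 to 1.22 ± 0.198 TPM (log2 fold change -1.32, adjusted limma p-value 0.000631).

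Impact, a paternally expressed gene whose product inhibits the amino acid sensing kinase GCN2, was the most abundant of the called members. It was at 72.4, 59.2 and 55.8 TPM in WT and at 98.7, 108 and 103 TPM in KO samples. The lowest KO sample lay well above WT 4, the highest WT sample. The mean rose from 62.5 ± 8.80 to 103 ± 4.66 TPM (SD, n = 3 each), with a log2 fold change of 0.72 (SE 0.12) and an adjusted limma p-value of 0.00191. Without WT 5, WT 8, KO 3, KO 7 or KO 10, the adjusted limma p-value was 0.00646 to 0.00823, in the test of all rows it was 0.00913 and with no variance trend 0.00603, so the call was lost in each case.

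**Figure D2:**
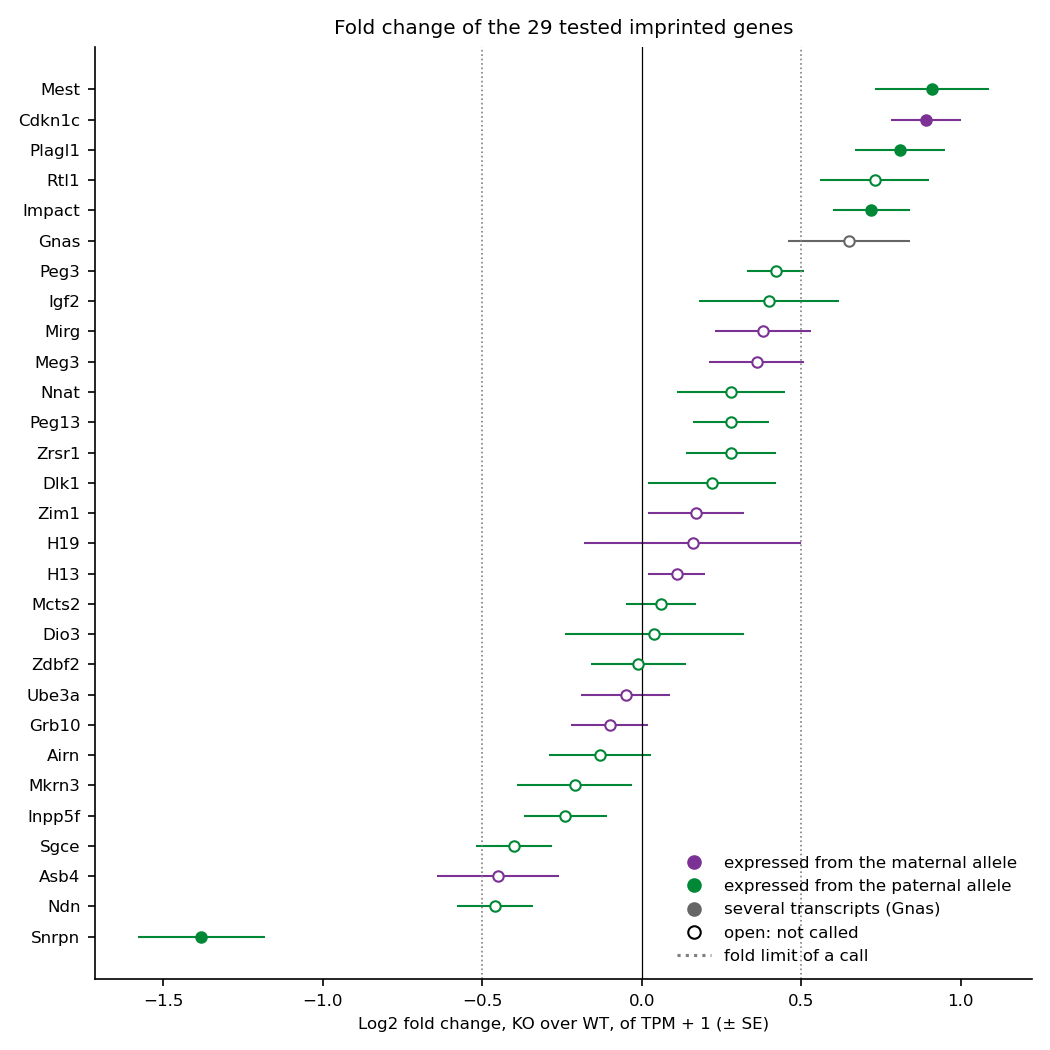
Log2 fold change of TPM + 1, KO over WT, for the 29 tested imprinted genes, with standard errors from limma. Filled points are called genes, dotted lines mark the fold limits of a call at 0.5 and -0.5, and color gives the expressed parental allele. Mest, Cdkn1c, Plagl1 and Impact lie at 0.72 to 0.91, and Snrpn stands alone at -1.38.

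The Snrpn-Ube3a cluster of central chromosome 7, the mouse counterpart of the Prader-Willi and Angelman region, held the single member called lower. Snrpn, which encodes the spliceosomal protein SmN from the paternal allele, was at 3.71, 3.28 and 2.39 TPM in WT and at 0.446, 0.478 and 0.830 TPM in KO samples. These values stood for 65, 62 and 49 reads in WT and 7, 10 and 16 reads in KO samples, so every KO sample was far below every WT sample at a low depth. The mean fell from 3.13 ± 0.673 to 0.585 ± 0.213 TPM (SD, n = 3 each), or to 18.7% of the WT level. On the log2 scale the change was -1.38 (SE 0.20), with an adjusted limma p-value of 0.00128. Without KO 3 it was 0.00597, and in the test of all rows 0.00798, both past the threshold.

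The row named Snrpn (ENSMUSG00000102252.5, chr7:59982495-60140219, minus strand) shares 589 bp (27.3%) of its exons with the same-strand gene Gm38393 and 216 bp (10.0%) with Snurf. Reads in shared exons cannot be assigned to either gene with certainty. Gm38393 (chr7:59974149-60005064) was at 2.34, 1.62 and 1.42 TPM in WT and 0.290, 0.376 and 0.258 TPM in KO samples. Like Snrpn, it passed the expression filter through its WT samples alone. Its KO samples all lay below its WT samples, with a log2 fold change of -1.08 (SE 0.21) and an adjusted limma p-value of 0.00485. That call was lost when any of the 6 samples was left out, with adjusted limma p-values of 0.00981 to 0.0175, with a pseudocount of 0.1 and with all rows tested. Downstream, the row that the table names Ipw and GENCODE names Snhg14, the long non-coding host of the small nucleolar RNAs that runs antisense to Ube3a, was at 0.889, 0.555 and 0.578 TPM in WT and 0.184, 0.206 and 0.176 TPM in KO samples. It was under the filter, its groups did not overlap, and the test of all rows gave a log2 fold change of -0.49 and an adjusted limma p-value of 0.0290. Both rows were matched by identifier and are not counted among the members.

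All 4 tested members of this cluster had log2 fold changes below 0, as did 8491 of all 14799 tested rows. Magel2, under the filter, went the other way. The listed Peg12 and Atp10a were lower in every KO sample than in every WT sample, as were 4427 of all tested rows. Their log2 fold changes were -0.23 and -0.37, with adjusted limma p-values of 0.133 and 0.0718. Ndn, which encodes the MAGE family protein necdin, was at 67.4, 54.2 and 53.5 TPM in WT and 44.7, 42.4 and 39.2 TPM in KO samples. The groups did not overlap, and a log2 fold change of -0.46 (SE 0.12, adjusted limma p-value 0.0180) missed both limits. Its neighbor and relative Magel2 was at 0.187, 0.123 and 0.228 TPM in WT and 1.13, 0.869 and 0.726 TPM in KO samples, or 5, 7 and 10 reads against 30, 38 and 39 in ascending order. Every KO sample of Magel2 was thus higher, and the KO mean was 5.07 times the WT mean, but both means were under 1 TPM. In the test of all rows its log2 fold change was 0.69 (SE 0.11) with an adjusted limma p-value of 0.0125, which does not pass. Mkrn3, a makorin ring finger gene beside them, was at 1.26, 1.57 and 1.20 TPM in WT and 0.972, 0.932 and 1.19 TPM in KO samples (log2 fold change -0.21, adjusted limma p-value 0.442). The groups of Mkrn3 were separated by a small gap. The maternally expressed Ube3a, a ubiquitin ligase imprinted in neurons, had means of 11.5 ± 1.87 TPM in WT and 10.9 ± 1.12 TPM in KO, and its samples overlapped.

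Among the called members, promoter windows were found for Plagl1, Mest and Snrpn and are shown. These genes are known to be transcribed from promoters that lie in imprinting control regions. No window was found for Cdkn1c or Impact. ZFP57, a zinc finger protein that maintains imprints together with TRIM28, recognises the methylated letters TGCCGC, and GCGGCA is the same motif on the opposite strand. RefSeq windows from 250 bases before to 50 after a gene start (build GRCm38.p6) were found for 31 of the 38 members, with several starts for some genes. Of the 48 windows of these members, 12 (25.0%) held the motif on either strand, as did 11.6% of all 32851 windows. Windows of a gene can overlap, and the 12 include Mest windows that start at 30737800 and 30737803. By gene, 11 of the 31 members (35.5%) had a window with the motif, and the share over all genes is not given here. Windows of members also held more CpG dinucleotides, with a median of 15 against 7 over all windows. A match describes letters and is no evidence of binding. The windows run 5′ to 3′ on the strand of the gene, chosen as the first that held the motif, with the motif in capitals. Plagl1 lies at chr10:13090582-13090881 (plus strand, 26 CpG), Mest at chr6:30737800-30738099 (plus strand, 17 CpG) and Snrpn at chr7:60005150-60005449 (minus strand, 7 CpG).
Plagl1: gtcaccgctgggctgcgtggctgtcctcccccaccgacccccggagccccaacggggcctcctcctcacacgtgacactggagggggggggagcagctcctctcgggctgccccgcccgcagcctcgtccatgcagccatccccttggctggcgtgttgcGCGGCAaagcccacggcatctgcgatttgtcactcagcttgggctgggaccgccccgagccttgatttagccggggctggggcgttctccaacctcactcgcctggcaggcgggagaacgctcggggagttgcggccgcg
Mest: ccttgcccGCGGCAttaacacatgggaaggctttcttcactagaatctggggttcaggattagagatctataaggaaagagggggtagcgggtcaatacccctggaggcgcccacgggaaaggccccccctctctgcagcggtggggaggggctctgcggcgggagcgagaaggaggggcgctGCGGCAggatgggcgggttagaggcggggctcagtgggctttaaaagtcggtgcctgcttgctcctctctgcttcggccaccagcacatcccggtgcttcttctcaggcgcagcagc
Snrpn: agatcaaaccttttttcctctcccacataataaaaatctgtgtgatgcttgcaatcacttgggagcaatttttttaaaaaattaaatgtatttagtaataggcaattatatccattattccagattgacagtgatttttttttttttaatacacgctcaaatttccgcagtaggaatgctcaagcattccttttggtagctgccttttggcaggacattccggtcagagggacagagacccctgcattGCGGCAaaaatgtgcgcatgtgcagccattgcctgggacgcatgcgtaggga
The motif occurs at 1 place in the Plagl1 window, 2 places in the Mest window and 1 place in the Snrpn window. The RefSeq start in the Snrpn window lies 135 bp upstream of the annotated 5′ end of Gm38393 and 135020 bp downstream of that of the row named Snrpn. The windows were picked for holding the motif.

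The H19-Igf2 and Kcnq1ot1 clusters lie next to each other on distal chromosome 7. H19, a maternally expressed long non-coding RNA, was at 396, 925 and 717 TPM in WT and at 442, 1013 and 826 TPM in KO samples. Igf2, the paternally expressed insulin-like growth factor, was at 16.5, 28.2 and 27.0 TPM in WT and at 24.5, 39.4 and 30.7 TPM in KO samples. Both genes overlapped between groups and were lowest in WT 4 among WT samples and in KO 3 among KO samples. The same 2 samples were lowest for Col1a1, at 3080 and 4195 TPM where the other 4 samples held 4958 to 5809 TPM, and the part of this in the levels of H19 and Igf2 was not tested. The log2 fold change was 0.16 (SE 0.34) for H19, which turned to -0.18 without WT 4, and 0.40 (SE 0.22) for Igf2, with adjusted limma p-values of 0.756 and 0.210. With a sample left out, that of Igf2 ranged from 0.16 without WT 4 to 0.56 without KO 3. Igf2 shares 3596 bp (62.8%) of its exons with the same-strand gene Gm49394, so its level is uncertain.

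Of the Kcnq1ot1 cluster, Cdkn1c was the one member expressed above the filter. Kcnq1ot1, the paternally expressed antisense RNA that silences the cluster in cis, was at 0.630, 0.628 and 0.612 TPM in WT and 0.637, 0.752 and 0.640 TPM in KO samples. The groups of Kcnq1ot1 were separated by a small gap, and the test of all rows gave a log2 fold change of 0.05. Phlda2, a maternally expressed gene that limits placental growth, had means of 0.308 and 0.507 TPM in WT and KO samples and rested on 2 to 6 reads per sample. Slc22a18, a solute carrier, and Ascl2, a trophoblast transcription factor, rested on at most 5 reads per sample. Of 8 further tested genes in the same region that are listed as imprinted, 2 were called higher, where 1.64% of all tested rows were. They were Osbpl5, an oxysterol-binding protein gene, from 57.2 ± 2.65 to 88.8 ± 3.48 TPM (log2 fold change 0.63, adjusted limma p-value 0.00130), and the decoy receptor gene Tnfrsf23, from 33.3 ± 2.41 to 50.3 ± 3.79 TPM (log2 fold change 0.58, adjusted limma p-value 0.00343). The Osbpl5 call was lost without WT 5, KO 7 or KO 10 and the Tnfrsf23 call without any 1 sample other than WT 4, with all rows tested and with no variance trend. The others had log2 fold changes of 0.42 (Cd81, adjusted limma p-value 0.00695), 0.10 (Dhcr7), 0.04 (Tnfrsf22, beside Tnfrsf23), -0.09 (Nap1l4), -0.16 (Tssc4) and -0.34 (Igf2os).

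In the Dlk1-Dio3 cluster of chromosome 12, all 5 members with a row were tested and had log2 fold changes above 0, from 0.04 to 0.73, with Rtl1 the nearest to a call. Of all 14799 tested rows, 6308 were above 0. Among listed genes at the edge of the cluster, Wars was lower in every KO sample than in every WT sample, with a log2 fold change of -0.57 (adjusted limma p-value 0.0119), and Begain was at 0.09 (adjusted limma p-value 0.804). Rtl1, a paternally expressed gene derived from a retrotransposon, was at 0.970, 0.933 and 1.11 TPM in WT and 2.42, 1.96 and 2.64 TPM in KO samples. Its groups did not overlap, and the KO mean was 2.33 times the WT mean. Its log2 fold change was 0.73 (SE 0.17), with an adjusted limma p-value of 0.0127. With voom on the recovered reads the log2 fold change was 1.20 and the adjusted p-value 0.00224, which passes. It also passes with no variance trend, at an adjusted limma p-value of 0.00407. Small RNA genes, most of them on the opposite strand, overlap 534 bp (8.40%) of the Rtl1 exons.

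The maternally expressed non-coding RNAs of this cluster form a long transcribed stretch that hosts small RNAs. Meg3 was at 61.4, 85.3 and 74.3 TPM in WT and 76.8, 107 and 100.3 TPM in KO samples, with a log2 fold change of 0.36 (SE 0.15). Mirg, the miRNA host, had means of 6.57 ± 0.958 and 8.88 ± 1.59 TPM, with a log2 fold change of 0.38. Samples of both genes overlapped between groups. Rian, matched by its identifier ENSMUSG00000097451.10, was at 101.4, 114.7 and 96.1 TPM in WT and at 115.3, 143.5 and 131.8 TPM in KO samples, with KO 3 just above WT 5. Its log2 fold change was 0.32, with an adjusted limma p-value of 0.0654. The adjusted values of Meg3 and Mirg were 0.117 and 0.0996.

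Dlk1, the paternally expressed transmembrane relative of Notch ligands, had means of 20.4 ± 5.36 TPM in WT and 23.7 ± 5.33 TPM in KO (log2 fold change 0.22, adjusted limma p-value 0.458). With a sample left out, its log2 fold change ranged from 0.02 without WT 8 to 0.39 without WT 4. Dio3, which inactivates thyroid hormone, had means of 2.39 ± 1.23 and 2.33 ± 0.431 TPM, and its log2 fold change of 0.04 turned to -0.31 without WT 4. Of 9 tested genes of Notch receptors, ligands and targets, Notch3 was called higher, or 11.1% against 1.64% of all tested rows. Notch3 rose from 3.09 ± 0.690 to 10.4 ± 0.944 TPM, with a log2 fold change of 1.49 and an adjusted limma p-value of 0.000344.

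In the Peg10-Sgce cluster on chromosome 6, neither of the 2 tested members was called. Sgce, Asb4 and Ppp1r9a, the last of them under the filter, were lower in every KO sample than in every WT sample, as were 4427 of all 14799 tested rows. Sgce, the paternally expressed epsilon-sarcoglycan, was at 7.92, 7.22 and 7.13 TPM in WT and 5.00, 5.82 and 5.36 TPM in KO samples (log2 fold change -0.40, adjusted limma p-value 0.0359). Asb4, a maternally expressed ankyrin repeat gene, was at 4.46, 3.39 and 2.71 TPM in WT and 2.59, 2.42 and 1.85 TPM in KO samples (log2 fold change -0.45, adjusted limma p-value 0.103). Ppp1r9a, the maternally expressed actin-binding neurabin, was at 0.917, 0.581 and 0.660 TPM in WT and 0.284, 0.426 and 0.193 TPM in KO samples, or 74 to 108 reads against 25 to 60. Its log2 fold change in the test of all rows was -0.40, with an adjusted limma p-value of 0.0854. Among the listed genes between them were Pon3, a paraoxonase gene listed as imprinted, which fell from 6.62 ± 0.620 to 2.16 ± 0.446 TPM (log2 fold change -1.28, adjusted limma p-value 0.000586), and the retrotransposon-derived Peg10, which had means of 45.8 ± 11.2 and 52.9 ± 5.26 TPM (adjusted limma p-value 0.332). Pon2 had a log2 fold change of -0.13 (adjusted limma p-value 0.415), and next to Sgce the listed Casd1 had one of -0.38 (adjusted limma p-value 0.0453).

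At the Peg3 cluster of proximal chromosome 7, Peg3, a paternally expressed zinc finger gene, was at 47.7, 49.0 and 44.6 TPM in WT and 64.4, 63.9 and 61.7 TPM in KO samples. The groups were well apart and the spread within each was small. The log2 fold change was 0.42 (SE 0.09), under the fold limit, with an adjusted limma p-value of 0.00863. After median-of-ratios scaling it was 0.52 with an adjusted p-value of 0.00275, which passes. Zim1, the maternally expressed zinc finger gene next to it, had means of 5.57 ± 1.06 and 6.31 ± 0.388 TPM, and the deubiquitinase gene Usp29 had means of 0.455 and 0.453 TPM.

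The Gnas locus, which encodes the stimulatory G protein alpha subunit and several imprinted transcripts, was at 2.29, 4.38 and 3.55 TPM in WT and 5.37, 6.49 and 5.53 TPM in KO samples. Every KO sample was higher, and the log2 fold change of 0.65 (SE 0.19) had an adjusted limma p-value of 0.0301. The exons of Gnas overlap those of the opposite-strand Gm20721 over 1469 bp and Nespas over 988 bp, so its level is uncertain. Nespas, the paternally expressed antisense RNA of the locus, had means of 0.630 and 0.587 TPM.

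The remaining loci hold 1 or 2 members each. Peg13, a paternally expressed non-coding RNA within an intron of Trappc9, was at 16.4, 15.2 and 12.4 TPM in WT and 17.2, 17.9 and 18.6 TPM in KO samples (log2 fold change 0.28, adjusted limma p-value 0.124). Its host gene Trappc9, a trafficking gene, fell from 8.18 ± 0.334 to 2.97 ± 0.325 TPM, with a log2 fold change of -1.21 and an adjusted limma p-value of 0.000356. Zrsr1, a paternally expressed splicing factor retrogene in an intron of Commd1, was at 3.30, 2.97 and 3.43 TPM in WT and 3.80, 4.41 and 4.24 TPM in KO samples. The difference in Zrsr1 did not pass (log2 fold change 0.28, adjusted limma p-value 0.158), and Commd1, a copper and endosomal sorting gene, had means of 0.423 and 0.396 TPM. Inpp5f, a phosphoinositide phosphatase gene, was at 9.38, 8.29 and 7.44 TPM in WT and 6.38, 7.33 and 7.02 TPM in KO samples (log2 fold change -0.24, adjusted limma p-value 0.192). H13, which encodes a signal peptide peptidase, was at 53.8, 52.0 and 49.6 TPM in WT and 55.4, 58.2 and 53.9 TPM in KO samples, with neighboring samples nearly touching and a log2 fold change of 0.11. Mcts2, the paternally expressed retrogene inside H13, had means of 18.3 and 19.1 TPM.

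The last 4 members overlapped between the groups. Grb10, an adaptor that inhibits insulin and IGF1 receptor signalling, had means of 244 ± 20.7 and 228 ± 27.9 TPM, and its log2 fold change was -0.10, or 0.007 after median-of-ratios scaling. Airn, the antisense RNA that silences Igf2r in cis, had means of 4.32 ± 0.663 and 3.88 ± 0.562 TPM. Its target Igf2r, the receptor that clears Igf2, had means of 213 ± 25.6 and 238 ± 36.2 TPM with an adjusted limma p-value of 0.434. Nnat (neuronatin) had means of 24.6 ± 6.50 and 29.4 ± 2.67 TPM. Zdbf2, a zinc finger gene, had means of 8.50 ± 0.328 and 8.53 ± 1.90 TPM.

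To compare reciprocally expressed neighbors within a sample, the log2 ratio of TPM + 1 was taken for 7 pairs. Kcnq1ot1 over Cdkn1c had ratios of -3.17, -3.03 and -3.19 in WT and -4.02, -4.0 and -3.90 in KO samples, a difference of -0.84. Peg3 over Zim1 differed by 0.25, Zrsr1 over Commd1 by 0.31 and Nespas over Gnas by -0.69. In these 4 pairs the WT and KO samples did not overlap, although WT 8 and KO 3 of Zrsr1 over Commd1 both round to 1.81, and the exact permutation test, two-sided, gave p = 0.1, the smallest that 3 against 3 samples allow, with an adjusted value of 0.175 over the 7 pairs. With a pseudocount of 0.1 the exact p was 0.4 for Zrsr1 over Commd1 and 0.2 for Nespas over Gnas, and without the 2 most abundant RNAs it was 0.3 for Zrsr1 over Commd1. Kcnq1ot1, Commd1 and Nespas were under the filter, with log2 fold changes of 0.05, -0.02 and -0.04 in the test of all rows. Their ratios therefore mostly restate the changes of Cdkn1c, Zrsr1 and Gnas. H19 over Igf2 differed by -0.23 (exact p = 0.5), Meg3 over Dlk1 by 0.14 (exact p = 0.9) and Mcts2 over H13 by -0.04 (exact p = 0.8).

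Genes that read or maintain imprints were examined from a list of 36, of which 32 were tested. Uhrf1, which guides the maintenance methyltransferase to replicated DNA, fell from 74.1 ± 5.01 to 40.2 ± 7.31 TPM (log2 fold change -0.88, adjusted limma p-value 0.00179), a call lost without WT 5 at 0.00590. Daxx, a histone chaperone, fell from 27.4 ± 1.59 to 17.7 ± 2.15 TPM (log2 fold change -0.61, adjusted limma p-value 0.00458), a call lost when any of the 6 samples was left out. These 2 were 6.25% of the tested list, and 9.03% of all tested rows were called lower. The count was 0 with no variance trend or with all rows tested, 5 without the 2 most abundant RNAs or with a filter of 10 TPM, and 6 with voom. Without the fold limit and with adjusted p-values up to 0.05 allowed, it was 7. The shares of all tested rows called lower under these settings are not given here. The median log2 fold change of the list was -0.17, against -0.07 over all tested rows. In 12 of the 32 the KO samples all lay below the WT samples and in 0 above them, against 4427 and 1961 of all 14799 tested rows. Of these 12, Dnmt3b passed the filter through its WT samples alone. The maintenance methyltransferase Dnmt1 was at 59.3, 65.7 and 56.5 TPM in WT and 33.2, 44.9 and 42.9 TPM in KO samples. Its groups did not overlap, and its log2 fold change of -0.58 had an adjusted limma p-value of 0.00936, above the threshold. Zfp57 (34.8 ± 2.32 and 40.6 ± 5.08 TPM), Trim28 (203 ± 13.8 and 213 ± 17.2 TPM) and Ctcf (40.4 ± 1.01 and 41.5 ± 6.22 TPM), which bind imprinting control regions, overlapped between the groups. Zfp445, another zinc finger protein that binds there, was lower in every KO sample than in every WT sample (31.5 ± 3.07 and 25.5 ± 3.15 TPM, log2 fold change -0.29, adjusted limma p-value 0.112) and was not called. Transcripts of Uhrf1 and Dnmt1 are known to be highest in dividing cells, and the part of the lower cell cycle genes in their levels was not tested.

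Of the IGF axis, through which Igf2, Igf2r and Grb10 act, 16 of 19 listed genes were tested and Igfbp3, a binding protein for the ligands, was called, or 6.25% of those tested against 1.64% of all tested rows called higher. The count was 0 with all rows tested or with no variance trend, 3 with voom and 5 with a filter of 10 TPM. At an adjusted p-value under 0.05 with no fold limit it was 6. The shares of all tested rows called higher under these settings are not given here. In 6 of the 16 the KO samples all lay above the WT samples and in 1 below them. Among all 14799 tested rows these numbers were 1961 and 4427. Igfbp3 rose from 5.85 ± 0.752 to 11.3 ± 2.15 TPM (log2 fold change 0.83, adjusted limma p-value 0.00467), a call lost without WT 4, WT 5, WT 8, KO 7 or KO 10. Over 52 further genes listed as imprinted, 38 were tested, and 4 of these (10.5%) were called lower and 2 (5.26%) higher, against 9.03% and 1.64% of all tested rows. All 6 are named above with their loci. The number higher was 0 without WT 5, KO 7 or KO 10, 1 without WT 8 or KO 3, and 4 after median-of-ratios scaling. The number lower was 1 with all rows tested, where Pon3, Copg2 and Phactr2 were lost, and 2 with a filter of 10 TPM. The median log2 fold change of that list was 0.06.

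In a fit of all 26898 rows, which includes many barely expressed rows, 1.27% of rows were called and 1 of the 38 members (2.63%) was called, namely Cdkn1c, with an adjusted limma p-value of 0.00429.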

How the data were processed

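RNA of 3 WT and 3 KO primary MEF samples was sequenced. Per the study's methods, the authors aligned reads to mm10 with STAR and compared groups with DESeq2, whereas the submitters' processing notes name Bowtie 0.12.2. The counting program, its use of strand and the annotation are not given in the sources used here. The authors deposited expression as TPM, and each column summed to 1000000. The authors also deposited log2 fold changes and adjusted p-values of their own comparison, which were not used. Of the columns of sample values, 0 lay outside these 6 samples. All rows matched GENCODE M21, from which positions and exon overlaps were taken.

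TPM times exon length gave whole reads in 100% of values checked at a tolerance of 0.05, which set the depth and the voom alternative. The 14799 rows whose WT or KO mean reached 1 TPM were fitted as log2(TPM + 1) by limma 3.58.1 under R 4.3.3, using a variance trend and Benjamini-Hochberg adjustment over all of them. Called genes had a log2 fold change beyond 0.5 at an adjusted p-value below 0.005. Ratios were tested with SciPy 1.17.1. On simulated data for this comparison, 82.5% of 200 genes changed by 1 on the log2 scale were recovered among 14475 genes. The changed genes were drawn from those with a mean of at least 200 reads, and the same spread was set for all genes. Snrpn had 7 to 65 reads, and the members called higher had log2 fold changes of 0.72 to 0.91. The simulated share therefore does not give the recovery for the members.

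The members and lists were chosen with earlier results of these data known. Every member is accounted for, called or non-overlapping members with every sample's value. From the lists, called genes are named (at most 8 per list), and always Dnmt1, Uhrf1, Trim28, Zfp57, Ctcf, Igf2r and Peg10. Rian, Ipw and Gm38393 were added afterwards by identifier, Col1a1 and the other uncalled list genes in the text after their values were seen. Lists of skeletal muscle, cartilage, endothelial, adipocyte and trophoblast markers had summed levels of 323 to 446, 111 to 191, 2.76 to 7.08, 6.54 to 9.80 and 0.774 to 2.01 TPM. Alternatives changed the pseudocount, filter, scaling, variance trend, test and samples.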

Additional observations from a re-analysis of the deposited data

How the results depend on the processing

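No paired analysis was possible because the replicate numbers of the groups (4, 5 and 8 against 3, 7 and 10) differ. The number of imprinted genes called higher was 4. It was 1 with all rows tested, 2 with no variance trend (Cdkn1c and Rtl1) and 3 with a pseudocount of 0.1. With voom or median-of-ratios scaling it was 5. At an adjusted p-value under 0.05 with no fold limit it was 7, and with a sample left out 1 to 3. The number called lower was 1. It was 0 with all rows tested, 0 with a filter of 10 TPM, which removed Snrpn, 3 at an adjusted p-value under 0.05 with no fold limit, and 0 to 1 with a sample left out. Apart from the fit of all rows, the shares of all tested rows called under these alternatives are not given here. The cause of these differences in count was not tested.

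Fold changes that turned sign were those of genes near 0. Median-of-ratios scaling took the median over all tested rows from -0.07 to 0.02, and the fold changes were then 0.007 for Grb10, 0.042 for Ube3a and 0.080 for Zdbf2. For Zdbf2 they were 0.004 without the 2 most abundant RNAs and 0.019 with voom. With a sample left out, H19 ranged from -0.18 to 0.51, Dio3 from -0.31 to 0.23, Ube3a from -0.14 to 0.062 and Zdbf2 from -0.17 to 0.11. Among the ratios, Meg3 over Dlk1 ranged from -0.15 to 0.36 and Mcts2 over H13 from -0.10 to 0.01. The other 5 pairs kept their direction under each alternative run for them (pseudocount, scaling, removal of abundant RNAs, samples left out). Members that rest on fewer than 10 reads in a sample, namely Snrpn (7 in KO 3), Magel2, Phlda2, Slc22a18 and Ascl2, are limited by depth.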
